A study of Mus musculus with 32 samples.

Results

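The TALE homeobox cofactor genes of the Meis, Pbx and Pknox families were followed through the histone marks of mouse MLL-AF9 leukemias with and without Kat2a. The members are the 8 genes Meis1, Meis2, Meis3, Pbx2, Pbx3, Pbx4, Pknox1 and Pknox2, taken by name from the 21938 protein-coding genes of the annotation (GENCODE M21). For each member, peaks were collected at the promoter, which here runs from 1 kb before to 500 bp after any annotated transcription start site (TSS), and across the locus, which here is the gene body with 50 kb on each side.

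TALE homeodomain proteins carry a few extra residues between helices of the homeodomain, and they bind DNA mostly as partners of other homeodomain proteins. Pbx proteins join HOX proteins on DNA and also bind Meis and Pknox (Prep) proteins, which hold Pbx in the nucleus. In leukemias with an MLL fusion, Meis1 and the HOXA genes are kept active together, Meis1 speeds the leukemia that Hoxa9 starts, and Pbx3 is a partner of both. Kat2a (Gcn5) is an acetyltransferase of histone H3 lysine 9. H3K4me3 and H3K9ac mark active promoters, H3K4me1 marks enhancers, and H3K27ac marks active elements of both kinds.

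Bone marrow cells depleted of lineage-positive cells came from Kat2a Flox/Flox animals, either Mx1-Cre-/- (WT) or Mx1-Cre+/- (KO). Both groups received pIpC, which induces Mx1-Cre, so the WT cells carry the floxed allele and the treatment without the recombinase. The marrow was taken 4 to 6 weeks later, transduced with a retrovirus for MLL-AF9 and transplanted into lethally irradiated recipients, and the labels give no age. Terminal leukemic marrow was pooled from 5 WT and 4 KO animals, and each of the 4 marks was profiled by ChIP-seq in 2 replicates of each pool, 16 libraries in all. Per the labels, each ChIP used 5000000 cells for H3K4me3 and H3K9ac and 500000 cells for H3K27ac and H3K4me1. Lists of H3K27ac and H3K4me1 thus differ from those of the other marks in cell input as well as in the mark. Both replicates of a genotype come from its 1 pool, so their spread holds no variation between leukemias, and every p-value below measures spread between these libraries. The deposited lists give peaks with the fold enrichment that the authors obtained at each summit, relative to background, and no read counts, so the depth is unknown and a gene without a listed peak cannot be given a detection limit.

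Kat2a itself carried an H3K4me3 peak at its promoter in all 4 libraries, with fold enrichments of 6.50 and 3.52 in WT and 6.36 and 10.8 in KO. Ranked among the strongest promoter peaks of all genes, its percentile was 28.7 and 8.54 in WT and 53.8 and 83.7 in KO. The H3K9ac percentile of Kat2a was 34.5 and 11.5 in WT and 35.7 and 51.1 in KO. Both marks ranked higher in both KO libraries, as at 17% (H3K4me3) and 12.9% (H3K9ac) of all genes tested. The excised allele of a floxed gene can keep its promoter, so these peaks check nothing about the knockout. The marker genes of the cells were read from H3K9ac promoter peaks present in both replicates. Of 8 myeloid genes, 8 had such a peak in WT and 6 in KO, where Mpo and Elane did not, against 4.39% of all genes with the peak in both WT replicates. The other marks had the higher myeloid count in KO, with 5 genes in WT and 6 in KO for H3K4me3, 7 and 8 for H3K27ac in replicate 2, and 4 and 7 for H3K4me1 in replicate 2. Mpo was among the 5 genes with H3K4me3 in WT and not among the 6 in KO. Mpo and Elane are among the 8 with H3K27ac in KO, and both had H3K4me1 in replicate 2 of each genotype. Over all genes, the shares in WT and KO were 48.4% and 50% for H3K4me3. They were 44.3% and 49.8% for H3K27ac and 18.4% and 37.2% for H3K4me1. Of 4 B lymphoid genes, none had the H3K9ac peak in either genotype. Of 4 T lymphoid genes, Cd3d and Lck had it in both, and of 4 stromal and endothelial genes, Col1a1 had it in both. Of 3 megakaryocyte genes, Itga2b and Gp9 had it in both genotypes. Among marker genes with an H3K9ac peak in all 4 libraries, the peak ranked higher within its library in both WT libraries at 5 of 6 myeloid genes, at Cd3d and Lck, at Col1a1, and at 0 of 2 megakaryocyte genes, against 18.5% of all genes. For H3K4me3 this held at 0 of 4 myeloid genes and at the stromal and endothelial genes Cxcl12 and Kdr, against 17.3%. Whether these differences take part in the results for the members was not tested.

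The lists of replicate 1 of H3K27ac and H3K4me1 stood apart from the others. Their median peak width was 48 bp in WT H3K27ac and 49 bp in the other 3, against 483 and 505 bp in the WT and KO lists of H3K27ac replicate 2, and 215 and 425 bp in those of H3K4me1 replicate 2. A q-value of 0.05 or less was reached by 0.0485% of the peaks in WT H3K27ac replicate 1 and by 0% in KO. For H3K4me1 replicate 2 the share was 34.3% in WT against 83.6% in KO, so the WT list of this mark, although used, also stood apart from its KO list. The study left out a replicate of each of these marks without naming it. Replicate 2 alone was therefore used for H3K27ac and H3K4me1, and both replicates for H3K4me3 and H3K9ac. In replicate 2, the KO list of H3K27ac covered 35.8 Mb against 19.7 Mb in WT, and that of H3K4me1 42.2 Mb against 11.5 Mb, so any member has more room for a peak of these marks in KO.

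A promoter peak of H3K4me3 was listed in both WT replicates for 6 of the 8 members, against 48.4% of all protein-coding genes, and in both KO replicates for 5, against 50%. For H3K9ac, the members with a peak in both replicates were also 6 in WT and 5 in KO, against 51.7% and 50.1% of all genes. The same 6 genes were counted for both marks in WT, namely Meis1, Meis3, Pbx2, Pbx3, Pbx4 and Pknox1, and the same genes without Meis3 in KO. H3K27ac replicate 2 had a peak at 4 members in WT (44.3% of all genes) and at 5 in KO (49.8%), the added gene being Pbx4. H3K4me1 replicate 2 had one at 4 members in WT (18.4% of all genes) and at 8 in KO (37.2%). The H3K4me1 counts changed with the threshold. At a q-value of 0.05 or less, 0 members had such a peak in WT and 6 in KO, whereas with equal numbers of peaks the count was 4 in each genotype. The members thus fall into 5 genes with promoter marks in every H3K4me3 and H3K9ac library, Meis3 with marks in some, and Meis2 and Pknox2 with few.

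**Figure D1:**
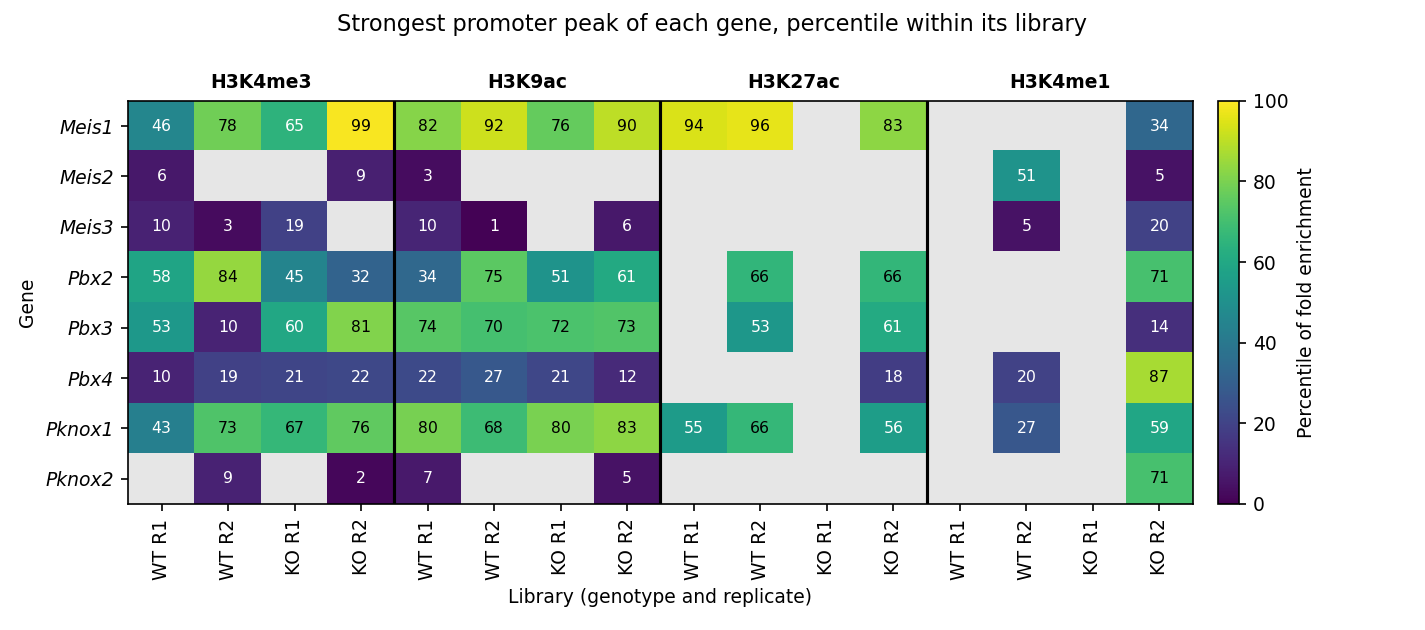
Heat map of the strongest promoter peak of each member (rows) in each of the 16 libraries (columns), as the percentile of its fold enrichment among the strongest promoter peaks of all protein-coding genes with a peak in that library; grey means no promoter peak. Meis1 has the highest H3K9ac percentiles of the members in 3 of the 4 libraries, and Meis2, Meis3 and Pknox2 stay at or under 19.2 wherever H3K4me3 or H3K9ac is listed.

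Meis1 (ENSMUSG00000020160.18) is the member that cooperates with Hoxa9 in leukemia. It lies on the minus strand of chromosome 11 (mm10) and has 7 annotated start sites, between 19012002 and 19018985. RefSeq promoter sequences (GRCm38.p6, 250 bases before the start) were matched for 5 of the 8 members, Meis1, Meis2, Meis3, Pbx2 and Pbx4, with Pbx3, Pknox1 and Pknox2 missing from the table. The part of it that lies before the outermost annotated start of Meis1, shown because the broadest peaks of the family lie over it, reads as follows on the minus strand of GRCm38 (chr11:19018986-19019219).
Meis1 promoter: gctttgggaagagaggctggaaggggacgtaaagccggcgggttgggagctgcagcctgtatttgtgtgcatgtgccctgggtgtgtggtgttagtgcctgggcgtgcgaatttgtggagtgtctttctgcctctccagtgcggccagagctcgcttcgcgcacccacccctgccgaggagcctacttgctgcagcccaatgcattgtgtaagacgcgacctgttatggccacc

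The breadth of the peaks sets Meis1 apart from most genes. Its widest promoter peak of H3K4me3 spanned 9401 and 5451 bp in the WT replicates and 7535 and 4096 bp in KO. Its widest peak of H3K9ac spanned 10012 and 15456 bp in WT and 10583 and 9089 bp in KO. The median widest promoter peak over all genes with one lay between 709 and 1332 bp in these 8 libraries. Peak width was looked at after the lists had been seen. In all 8 libraries the Meis1 peak was above the width percentile of 99.9 among all genes with a promoter peak. Width overlapped between the genotypes in H3K4me3 and also in H3K9ac.

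Peak height was compared within each library, as the percentile of a gene's strongest promoter peak by fold enrichment among those of all protein-coding genes with a promoter peak there. The percentile of its strongest H3K4me3 peak was 46.1 and 78.2 in WT and 64.8 and 98.9 in KO. The means were 62.2 ± 22.7 (SD, n = 2) and 81.9 ± 24.1 (SD, n = 2), and the groups overlapped (two-sided exact permutation p = 0.667, where 2 against 2 libraries can give no p under 0.333). For H3K9ac the percentiles were 81.8 and 92.3 in WT against 76.3 and 90.0 in KO, again with overlapping groups (two-sided exact permutation p = 0.667). In H3K27ac replicate 2 the percentile was 96.1 in WT and 82.9 in KO, from fold enrichments of 12.8 and 13.1. H3K4me1 was absent from the Meis1 promoter in WT and listed only in KO replicate 2. It spans 19011252 to 19011530 at a fold enrichment of 3.31, inside the gene and at the edge of the window of its lowest start site.

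Read in steps of 2.5 kb from the outermost start, H3K9ac at Meis1 covered every base from 2.5 kb upstream to 5 kb into the gene in all 4 libraries. Between 10 and 12.5 kb into the gene, it covered 80.1% and 91.2% of the bases in WT and 71.8% and 68.4% in KO. From 15 to 17.5 kb the share was 8.56% and 21.2% in WT and 0% in both KO libraries. The acetylated block thus ran to about 12.5 kb in both genotypes, and only its thin far edge was listed in WT alone. H3K4me3 covered 100% and 86.2% of the 2.5 kb before the start in WT and 100% and 99.8% in KO. Between 7.5 and 10 kb into the gene, H3K4me3 covered 84.4% and 0% in WT and 59% and 37.4% in KO, where H3K9ac covered 100% in both WT libraries and 93.8% and 96.7% in KO. The gaps differed more than the extent, since WT replicate 2 listed the H3K9ac block as a single peak of 15456 bp and the other 3 libraries listed it in pieces. These steps were chosen after the peaks had been seen.

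**Figure D2:**
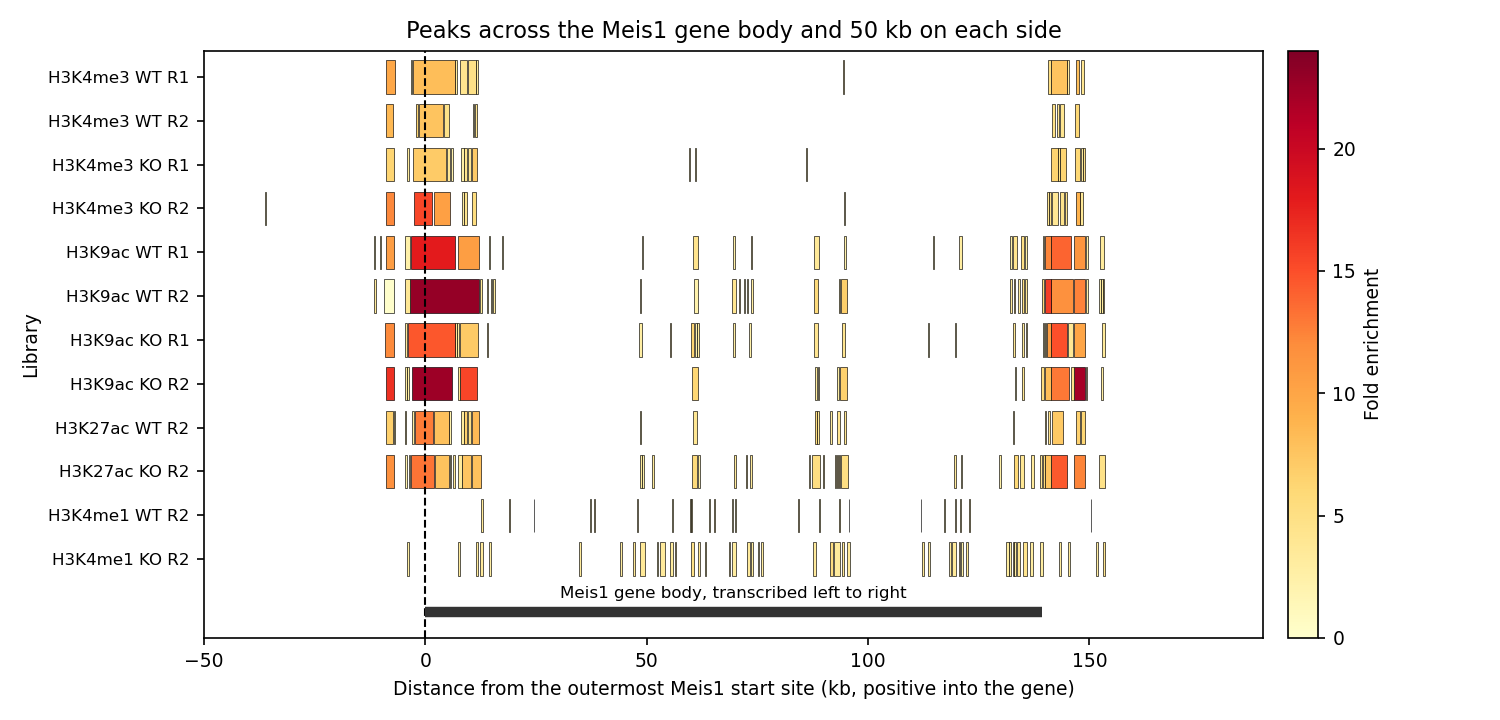
Peaks (boxes) across the Meis1 gene body and 50 kb on each side, by distance in kb from the outermost start site and coloured by fold enrichment, in the 4 H3K4me3 and 4 H3K9ac libraries and in replicate 2 of H3K27ac and H3K4me1. Strong peaks sit at the start, about 8 kb before it and beyond the 3′ end of the gene in both genotypes, and H3K4me1 lies between them inside the gene.

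Outside promoters, the strongest H3K9ac region of any member locus lay upstream of Meis1, at 19025986 to 19028286 on chromosome 11, with its centre 8.15 kb before the outermost start. Its H3K9ac fold enrichment was 10.8 and 24.1 in WT and 12.2 and 16.7 in KO. The same region carried H3K4me3 at 9.91 and 8.53 in WT against 6.36 and 12.2 in KO. It also carried H3K27ac at 6.71 in WT and 11.7 in KO, and no H3K4me1 peak in any library. No promoter window of an annotated gene overlaps it, and it combined H3K4me3 with both acetylation marks in both genotypes, with overlapping H3K4me3 and H3K9ac values. The sequence of 201 bases around its H3K9ac summit in WT replicate 2 is shown because it is the top distal peak of the family (GRCm38, plus strand, chr11:19026955-19027155).
Meis1 upstream region: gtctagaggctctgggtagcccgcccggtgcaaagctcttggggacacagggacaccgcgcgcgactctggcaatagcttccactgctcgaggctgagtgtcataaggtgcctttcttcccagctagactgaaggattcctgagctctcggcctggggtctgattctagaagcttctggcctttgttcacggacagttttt

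Beyond the 3′ end of Meis1, 3 more strong H3K9ac regions followed each other closely from 18869948 to 18879085. The region from 18869948 to 18872481 had H3K9ac fold enrichments of 11.4 and 12.5 in WT and 10.1 and 22.1 in KO, and H3K4me3 at 8.06 and 6.00 in WT against 6.01 and 9.03 in KO. The region from 18872552 to 18877652 had H3K9ac at 13.9 and 11.6 in WT against 15.0 and 13.0 in KO. The region from 18877723 to 18879085 had H3K9ac at 12.3 and 15.9 in WT against 10.7 and 8.13 in KO, the only region of the 3 in which WT did not overlap KO. The other 2 overlap start windows of the noncoding gene 8430419K02Rik, named after its values were seen, so these peaks cannot be assigned to Meis1. How often fold enrichments separate in this way over all distal regions was not counted, so the separation is not read as a genotype difference. Inside the gene body, Meis1 had 10 further distal H3K9ac regions with lower values, such as the intron region at 18923727 to 18925234 with 2.45 and 6.75 in WT and 4.27 and 6.62 in KO.

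Across the whole Meis1 locus, H3K9ac peaks covered 35.2 and 39.1 kb in WT and 33.9 and 30.8 kb in KO. These are 14.7% and 16.4% of the locus in WT and 14.2% and 12.9% in KO, with mean peak fold enrichments of 5.31 and 5.92 in WT and 5.25 and 7.66 in KO. Both WT libraries covered more than both KO libraries. Relative to the share of the genome that each list covered, the locus was 15.0-fold and 15.4-fold richer in WT and 18.6-fold and 14.2-fold in KO, and the groups overlapped. The locus share ranked at percentiles of 98.6 and 98.7 in WT and 99.5 and 97.6 in KO among the loci of all protein-coding genes. H3K27ac replicate 2 covered 22.2 kb in WT and 38.0 kb in KO, and H3K4me1 replicate 2 covered 4.81 and 25.8 kb, in lists whose total length also differed as given above.

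Meis2 (ENSMUSG00000027210.20, chromosome 2, 115863064 to 116065839) and Meis3 (ENSMUSG00000041420.18, chromosome 7, 16175090 to 16186504) are the paralogs of Meis1. Meis2 had an H3K4me3 promoter peak in WT replicate 1 (fold enrichment 3.74) and KO replicate 2 (3.83), an H3K9ac peak in WT replicate 1 alone (2.82), and no H3K27ac peak. In WT replicate 2, an H3K4me3 peak (3.79) lay outside the promoter window, within 2.5 kb before the outermost Meis2 start. Meis3 had H3K4me3 at 4.28 and 2.97 in WT and at 4.25 in KO replicate 1, with none in KO replicate 2. Its H3K9ac was 3.80 and 2.47 in WT and 3.82 in KO replicate 2, with none in KO replicate 1. In the full lists, Meis3 is thus the member that had each mark in both WT replicates and not in both KO replicates. This difference ended with peaks of a q-value of 0.05 or less, the threshold the study states, under which each mark was counted at 5 members in WT and 5 in KO. The −log10 q-value of the Meis3 peak in WT replicate 2 was 0.932 for H3K4me3 and 1.09 for H3K9ac. Over all genes, 3.4% of those with H3K4me3 in both WT replicates lacked it in 1 or both KO replicates, and 4.39% did for H3K9ac. No member went the other way, against 6.56% of genes with H3K4me3 in both KO replicates and 1.47% with H3K9ac. The Meis3 peaks lay near the lower end of the lists, with H3K9ac percentiles of 10.2 and 0.553 in WT and 6.36 in KO, so a lost peak and a peak just under the calling threshold cannot be told apart in libraries of unknown depth.

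Pbx2 (ENSMUSG00000034673.14) encodes a Pbx partner of HOX and Meis proteins and lies on chromosome 17 from 34591266 to 34597400. Its RefSeq promoter is shown because its base composition is the most extreme of the matched members, 77.6% G and C (GRCm38, plus strand, chr17:34592009-34592258).
Pbx2 promoter: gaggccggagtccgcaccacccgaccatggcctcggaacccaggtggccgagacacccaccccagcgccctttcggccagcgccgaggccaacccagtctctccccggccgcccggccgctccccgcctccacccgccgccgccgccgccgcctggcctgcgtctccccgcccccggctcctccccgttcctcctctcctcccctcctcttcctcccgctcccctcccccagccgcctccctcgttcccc

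The percentile of the strongest H3K4me3 peak at Pbx2 was 58.4 and 84.3 in WT and 45.0 and 31.8 in KO. Both WT libraries lay above both KO libraries, with means of 71.4 ± 18.3 (SD, n = 2) and 38.4 ± 9.39 (SD, n = 2) and a two-sided exact permutation p of 0.333, the smallest this design allows. The difference of 33.0 percentile points was 52.5 without replicate 1 and 13.4 without replicate 2. Pbx2 was the only member of the 5 tested with this direction in H3K4me3, against 17.3% of the 10247 genes with a peak in all 4 libraries. The fold enrichments behind the percentiles were 9.35 and 8.22 in WT against 5.84 and 6.00 in KO. H3K9ac at Pbx2 did not follow this direction. Its percentiles were 33.8 and 74.9 in WT against 51.5 and 60.8 in KO (two-sided exact permutation p = 1.0). The Pbx2 peak was broad, with H3K9ac widths of 4520 and 5566 bp in WT and 3854 and 4645 bp in KO. In all 4 H3K9ac libraries, and in H3K4me3 of WT replicate 1 and KO replicate 2, this peak also covered the start of the neighbouring gene Gpsm3 at 34589806, so those values cannot be divided between the 2 genes. In H3K4me3 of WT replicate 2 and KO replicate 1, the strongest Pbx2 peak was listed apart from that of Gpsm3.

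Pbx3 (ENSMUSG00000038718.15), the partner of Hoxa9 and Meis1 in MLL leukemia, is transcribed from the minus strand of chromosome 2, between 34171457 and 34373142. The percentile of its strongest H3K4me3 peak was 53.4 and 9.97 in WT and 60.0 and 81.1 in KO. The KO libraries lay above the WT libraries, with means of 70.6 ± 14.9 (SD, n = 2) and 31.7 ± 30.7 (SD, n = 2) and a two-sided exact permutation p of 0.333. The low value belonged to WT replicate 2, where the strongest peak had a fold enrichment of 3.66 against 8.82 in WT replicate 1. The difference (WT minus KO) was −38.9 percentile points with both replicates, −71.1 without replicate 1 and −6.63 without replicate 2. H3K9ac at Pbx3 was the most even of the 5 members, with percentiles of 74.0 and 70.5 in WT and 71.5 and 72.8 in KO (two-sided exact permutation p = 1.0). Its fold enrichments were 15.7 and 14.9 in WT against 13.5 and 16.3 in KO. When only the outermost start of each gene was counted, the mean H3K9ac percentile of Pbx3 was 24.7 points lower in WT than in KO, a difference of −24.7 for WT minus KO in place of 0.103.

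At active promoters, nucleosomes with these marks usually flank an open stretch at the start site. Around the Pbx3 start sites the peaks left a gap. From 34371989 to 34372334 no H3K4me3, H3K9ac or H3K27ac peak was listed, in any of the 8 lists of the first 2 marks or in replicate 2 of H3K27ac, and peaks lay on both sides of the gap in 10 of these 10 lists. The gap is 346 bp long and holds 2 annotated start sites of Pbx3. Pknox1 had a gap of 202 bp, from 31564536 to 31564737 on chromosome 17, that holds 1 start site, with a peak on each side within 2.5 kb of the outermost start in 9 of 10 lists. A short peak bordered the Pknox1 gap on the gene side in 5 of these 10 lists, and in the others the next peak inside the gene lay farther away. The gaps were described after they had been seen in the lists.

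**Figure D3:**
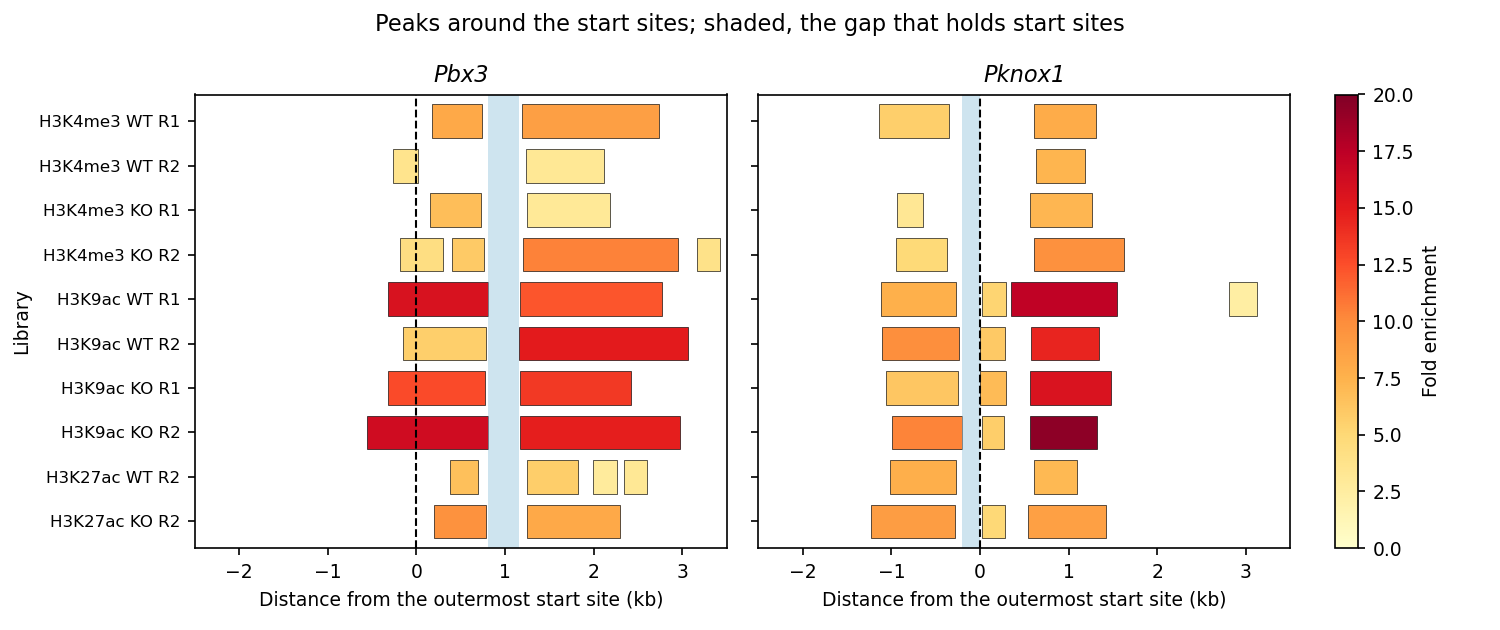
Peaks (boxes, coloured by fold enrichment) around the start sites of Pbx3 and Pknox1, by distance in kb from the outermost start (dashed line), in the 8 H3K4me3 and H3K9ac libraries and in replicate 2 of H3K27ac. The shaded stretches, 346 bp at Pbx3 and 202 bp at Pknox1, hold annotated start sites and no listed peak.

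An intron of Pbx3 carried the strongest distal H3K9ac region of its locus, at 34359210 to 34360708. Its fold enrichment was 4.25 and 6.97 in WT and 3.31 and 5.43 in KO for H3K9ac, and 3.47 in WT and 5.32 in KO for H3K27ac. The other 4 distal H3K9ac regions of Pbx3, all within the gene, had a peak in both WT replicates and not in both KO replicates, as did 38.1% of 9703 distal regions of the genome. In KO replicate 2, 2 of the 4 had a peak, with fold enrichments of 3.91 and 3.38. Over all members, regions of this kind fell from 12 to 5 with equal peak numbers. The summit sequence of the intron region (GRCm38, plus strand, chr2:34359651-34359851) is shown because it holds the letters TGACAG, the core bound by Meis and Pknox proteins, on the other strand, which reads CTGTCA here and is in capitals.
Pbx3 intron region: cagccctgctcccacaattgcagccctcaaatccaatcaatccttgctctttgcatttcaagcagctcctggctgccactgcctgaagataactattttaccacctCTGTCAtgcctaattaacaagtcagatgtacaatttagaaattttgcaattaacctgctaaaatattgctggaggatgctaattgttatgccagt

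Pbx4 (ENSMUSG00000031860.17), the remaining Pbx gene here, lies on chromosome 8 from 69832491 to 69872292 and had the lowest H3K9ac percentiles of the 5 members with a peak in every library. Its RefSeq promoter up to the annotated start is shown because this low rank sets Pbx4 apart from them (GRCm38, plus strand, chr8:69832374-69832490).
Pbx4 promoter: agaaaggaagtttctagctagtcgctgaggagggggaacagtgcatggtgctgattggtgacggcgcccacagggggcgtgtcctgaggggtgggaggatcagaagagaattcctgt

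At Pbx4, the fold enrichment of H3K9ac was 6.00 and 7.40 in WT and 5.49 and 4.79 in KO. The percentiles were 22.4 and 27.5 in WT against 21.3 and 11.8 in KO, so both WT libraries lay above both KO libraries, with means of 24.9 ± 3.59 (SD, n = 2) and 16.6 ± 6.69 (SD, n = 2) and a two-sided exact permutation p of 0.333. Pbx4 was the only member of the 5 tested with this direction in H3K9ac, against 18.5% of 10837 genes. With lists of equal peak number no member had it, and with peaks ranked by −log10 p it was Pbx3 in place of Pbx4. The difference of 8.36 percentile points was 15.6 without replicate 1 and 1.10 without replicate 2. H3K4me3 went the other way, with fold enrichments of 4.31 and 4.21 in WT and 4.32 and 5.14 in KO. In mean percentile, WT had 14.6 ± 6.83 (SD, n = 2) and KO 21.3 ± 0.453 (SD, n = 2), with both KO libraries above both WT libraries (two-sided exact permutation p = 0.333). Pbx3 and Pbx4 were the 2 members of 5 with H3K4me3 percentiles higher in both KO libraries, against 17% of all genes tested. Pbx3 alone had this direction with equal peak numbers, and Pbx4 alone with peaks ranked by −log10 p or with the outermost start of each gene. The Pbx4 difference (WT minus KO) was −6.68 percentile points, −2.17 without replicate 1 and −11.2 without replicate 2. An H3K27ac peak was listed at Pbx4 in KO replicate 2, with a fold enrichment of 4.93, and not in WT replicate 2. In terms of acetylation classes, its H3K4me3 region carried H3K9ac alone in WT and both acetylation marks in KO. That change was found in 66.8% of the 1613 genes whose WT promoter region had H3K9ac alone, and it rests on 1 H3K27ac list per genotype, the longer of which is the KO list. Meis3, the other member with H3K9ac alone in WT, had no H3K4me3 region in KO, so the change was seen at 1 of 2 members.

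**Figure D4:**
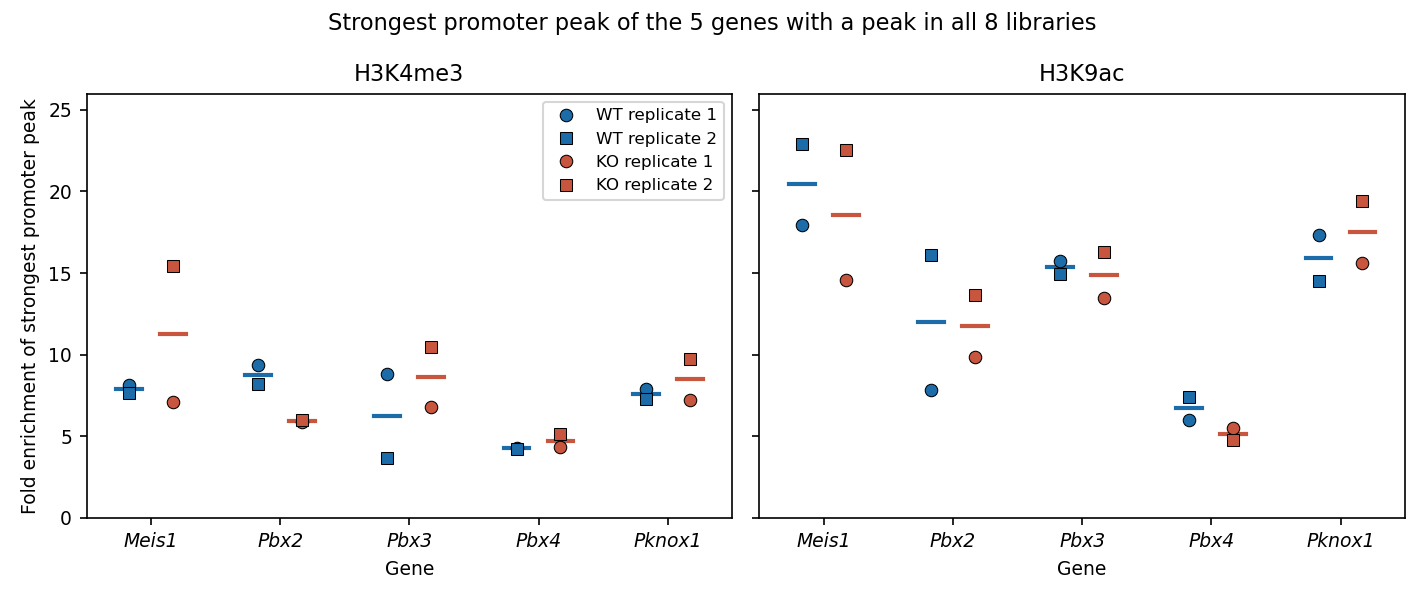
Fold enrichment (vertical axis, ratio over background) of the strongest H3K4me3 (left) and H3K9ac (right) promoter peak of the 5 members with a peak in all 8 libraries; circles are replicate 1, squares replicate 2, bars the mean of 2 replicates. WT and KO points overlap for H3K9ac at Meis1, Pbx2, Pbx3 and Pknox1, whereas at Pbx4 the WT values of 6.00 and 7.40 lie above the KO values of 5.49 and 4.79.

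Pknox1 (ENSMUSG00000006705.13), which encodes a Meis-like partner of Pbx proteins, lies on chromosome 17 from 31564734 to 31607693. Its H3K9ac fold enrichment was 17.3 and 14.5 in WT and 15.6 and 19.4 in KO, and the groups overlapped on this scale. The percentiles were 79.6 and 68.4 in WT against 80.0 and 83.1 in KO, higher in both KO libraries (two-sided exact permutation p = 0.333), with a distance of less than 1 percentile point between the nearest WT and KO libraries. It was the only member of the 5 tested with this direction in H3K9ac, against 12.9% of all genes. The difference (WT minus KO) was −7.53 percentile points, −14.7 without replicate 1 and −0.398 without replicate 2. With only the outermost start of each gene counted, it changed sign, to 23.9 percentile points higher in WT, and with percentiles among all peaks of a library the groups overlapped. H3K4me3 at Pknox1 overlapped between the genotypes, with percentiles of 43.1 and 72.5 in WT and 66.7 and 75.5 in KO (two-sided exact permutation p = 0.667), whereas with percentiles among all peaks of a library both KO libraries lay above both WT libraries. Near a start site inside the gene, replicate 2 of H3K27ac listed a peak from 31594400 to 31594680 in WT (fold enrichment 4.78) and from 31594332 to 31594766 in KO (5.80). A stronger H3K27ac peak followed, from 31594791 to 31595267 in WT (4.96) and from 31594832 to 31595375 in KO (6.72). H3K9ac was listed there in replicate 2 only, at 5.04 in WT and at 2.88 and 2.44 in KO. Pknox2 (ENSMUSG00000035934.16, chromosome 9, 36890982 to 37147407), its paralog, had H3K4me3 in WT replicate 2 (3.62) and KO replicate 2 (2.86) and H3K9ac in WT replicate 1 (3.25) and KO replicate 2 (3.58). Neither mark was listed at Pknox2 in both replicates of a genotype, and H3K27ac was listed in none.

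By mean H3K9ac percentile in WT, the order of the 5 members was Meis1 (87.0 ± 7.46, SD, n = 2), Pknox1 (74.0 ± 7.92), Pbx3 (72.2 ± 2.52), Pbx2 (54.4 ± 29.1) and Pbx4 (24.9 ± 3.59). In KO it was Meis1 (83.1 ± 9.66), Pknox1 (81.6 ± 2.17), Pbx3 (72.1 ± 0.881), Pbx2 (56.1 ± 6.58) and Pbx4 (16.6 ± 6.69), the same order. In WT, Pknox1 and Pbx3 overlapped, as did Pbx2 with both, and in KO Meis1 and Pknox1 overlapped. Pbx4 lay below the other 4 in every H3K9ac library.

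Distal H3K9ac regions, outside the promoter windows of all protein-coding genes and with a peak in both replicates of a genotype, numbered 30 in the 8 loci. Of these, 17 had a peak in both replicates of WT and of KO, 12 in both of WT and not in both of KO, and 1 in both of KO and not in both of WT. Over the genome, 38.1% of 9703 such regions were of the WT kind and 10.4% of the KO kind. The member regions shared by both genotypes lay in the loci of Meis1 (11), Pbx2 (3), Pbx3 (1), Pbx4 (1) and Pknox1 (1). The 12 WT regions lay at Meis1 (6), Pbx3 (4), Meis2 (1) and Pknox1 (1), and 7 of them had no H3K9ac peak in either KO library. They were weak, with mean fold enrichments from 2.77 to 3.42, whereas the shared regions ran from 3.41 to 15.9. With lists of equal peak number, an alternative chosen after seeing the data, the members had 5 regions of the WT kind and 2 of the KO kind.

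The strongest distal regions of the other loci were shared by the genotypes, except at Meis2. At Pbx2, the region 34639763 to 34640856 had H3K9ac at 2.45 and 6.80 in WT against 4.93 and 6.00 in KO. At Pbx4, the region 69920424 to 69921180 had 4.53 and 5.64 in WT and 4.42 and 7.00 in KO. At Pknox1, the region 31557028 to 31559769, which overlaps a start window of the noncoding gene 4833413E03Rik, had 6.37 and 6.42 in WT and 5.37 in both KO libraries. The WT values lay above the KO values at Pknox1 and overlapped them at Pbx2 and Pbx4. The share of all distal regions with such a separation was not counted. At Meis2, the intron region 115890802 to 115891183 had 3.22 and 3.61 in WT and no KO peak. Meis3 and Pknox2 had no distal H3K9ac region.

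Over the 8 loci, the mean covered share of H3K9ac was 5.54% and 6.35% in WT and 4.82% and 5.38% in KO, a KO to WT ratio of 0.858. The peaks covered 77.0 and 85.1 kb in WT and 66.0 and 71.0 kb in KO, and their mean fold enrichments were 6.10 and 6.50 in WT against 6.64 and 7.54 in KO. The lower share in KO did not hold relative to the share of the genome covered by the same list, where the ratio was 1.06. Under the other alternatives the H3K9ac share stayed lower in KO, with ratios between 0.819 (gene body alone) and 0.898 (equal peak numbers). For H3K4me3 the mean share was 4.10% and 2.18% in WT against 3.19% and 3.20% in KO, with 54.0 and 28.5 kb covered in WT and 42.1 and 42.2 kb in KO and mean fold enrichments of 6.12 and 4.91 in WT and 4.71 and 5.89 in KO. The ratio of 1.02 depended on which replicate was used, since it was 1.47 without replicate 1 and 0.779 without replicate 2. In H3K27ac replicate 2 the share was 3.88% in WT and 6.59% in KO (49.6 and 83.8 kb, mean fold enrichments 5.00 and 5.90), a ratio of 1.70 that became 0.935 relative to the genome. In H3K4me1 replicate 2 it was 1.41% and 5.49% (16.9 and 69.5 kb, mean fold enrichments 3.51 and 3.45), a ratio of 3.89 that became 10.7 at a q-value of 0.05 or less, 2.58 with equal peak numbers and 1.06 relative to the genome. After division by the covered share of the genome, the ratios of these 3 marks lay between 0.935 and 1.06.

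**Figure D5:**
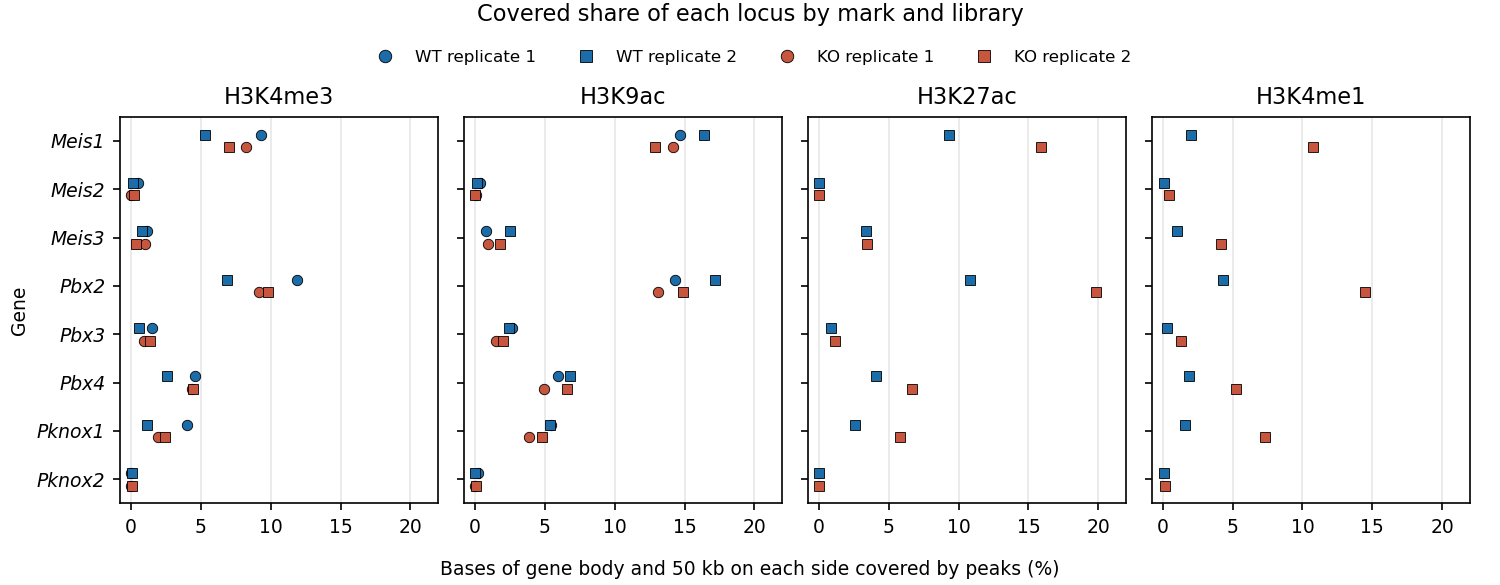
Share of bases (horizontal axis, %) of each member's gene body and 50 kb on each side covered by peaks, by mark; circles are replicate 1 and squares replicate 2, and only replicate 2 is drawn for H3K27ac and H3K4me1. Meis1 and Pbx2 have the largest H3K9ac shares, from 12.9% to 17.2%, and Meis2 and Pknox2 lie under 1% in every panel.

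Pbx2 shares its locus with 10 other protein-coding genes, whereas Meis1 and Meis2 share theirs with none, so the covered share at Pbx2 includes the promoters of its neighbours. At Pbx2, H3K9ac covered 14.3% and 17.2% of the locus in WT and 13.1% and 14.9% in KO. Of the 27 protein-coding genes that start inside the 8 loci, 22 had an H3K9ac promoter peak in both replicates in WT and 20 in KO. For H3K4me3, 20 had one in each genotype. Among the 20 neighbours with an H3K9ac peak in all 4 libraries, the percentiles were higher in both WT libraries at 3 and in both KO libraries at 2, against 18.5% and 12.9% of all genes. For H3K4me3 the counts were 0 and 3 of 19, against 17.3% and 17%. Wdr4 and Ndufv3, among the 3 for H3K9ac, share their peak, as do Yjefn3 and Ndufa13 among the 3 for H3K4me3.

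The matched promoters of the members differed in base composition. G and C made up 59.6% of the 250 bases at Meis1, 47.6% at Meis2, 63.6% at Meis3, 77.6% at Pbx2 and 55.6% at Pbx4, against a median of 52.4% over 32851 promoters in the table. The ratio of observed to expected CpG was 0.595 at Meis1, 0.497 at Meis2, 0.550 at Meis3, 0.903 at Pbx2 and 0.709 at Pbx4, all above the median of 0.374. Searched on both strands, neither TGACAG nor TGATNNAT, letters bound by Pbx with HOX proteins, occurs in these 5 windows. TGACAG occurs in 15.9% of all promoters of this length and TGATNNAT in 7.68%. Around the summits of 17408 distal H3K9ac peaks of WT replicate 2, 201 bases each, they occur in 15.5% and 5.60%.

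The partners of the members were described by lists. Among 8 other TALE genes, H3K9ac was present in both replicates at 2 genes in each genotype, Tgif1 and Tgif2, and H3K4me3 at 4 in each. Among 8 Hox genes of the A and B clusters that partner with Meis and Pbx, H3K9ac was present at 7 in WT and 5 in KO, H3K4me3 at 5 in each, and H3K27ac in replicate 2 at 4 in WT and 6 in KO. Over all genes, H3K9ac was present at 51.7% in WT and 50.1% in KO, H3K4me3 at 48.4% and 50%, and H3K27ac at 44.3% and 49.8%. Hoxa11 and Hoxb3 were the 2 genes of 7 with H3K9ac counted in WT and not in KO, against 4.39% of all genes counted in WT. The Pbx-binding protein gene Pbxip1 had H3K9ac in both replicates of each genotype. Among 6 genes known downstream of Hoxa9 and Meis1, H3K9ac was present at 5 in each genotype, and H3K4me3 at 5 in WT and 6 in KO, where Trib2 was added, against 6.56% of all genes counted in KO. Of the 5 with H3K9ac in all 4 libraries, Syk and Flt3 were higher in both KO libraries (12.9% of all genes) and Hif1a in both WT libraries (18.5%), and for H3K4me3 none of 5 was higher in either. Of 5 Hox genes, Hoxa6 was higher in both WT libraries for H3K9ac (18.5% of all genes). Of 5 for H3K4me3, Hoxa7 and Hoxa11 were higher in both WT libraries (17.3%). None was higher in both KO libraries, against 12.9% of all genes for H3K9ac and 17% for H3K4me3. Of 4 other TALE genes with H3K4me3 in all 4 libraries, Irx5 was higher in both WT libraries (17.3% of all genes) and Tgif1 and Tgif2 in both KO libraries (17%), and for H3K9ac 0 of 2 were higher in either. The H3K9ac percentiles of the kinase gene Syk were 79.2 and 82.4 in WT against 93.2 and 98.9 in KO, and those of the receptor gene Flt3 were 24.9 and 11.5 in WT against 42.4 and 35.0 in KO.

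The gene with the most similar promoter percentiles over 12 libraries, by mean absolute difference, was Slc48a1 for Meis1 (6.87 percentile points), Ampd2 for Pbx2 (8.63), Zbtb41 for Pbx3 (7.73), Nckap5l for Pbx4 (6.77) and Phip for Pknox1 (8.07). The 12 libraries are those of H3K4me3 and H3K9ac and replicate 2 of H3K27ac and H3K4me1, and a library without a promoter peak counted as 0.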

How the data were processed

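The members and gene lists were chosen with earlier results of these data known. Per the submitters' processing notes, the authors aligned reads to mm10 with BWA and called peaks with MACS2. The deposited lists give, for each peak, the authors' fold enrichment over background as a ratio, its p-value and its q-value on a −log10 scale, and also a score. Peaks were set against GENCODE M21 (positions counted from 1), and an overlap of 1 bp counted. Each gene's strongest promoter peak was turned into a mid-rank percentile among all genes with a promoter peak in that library. Genotypes were compared by a two-sided exact permutation test between 2 and 2 libraries, whose smallest p is 0.333, so no adjustment can call a gene. The input libraries were not used. The genes named follow a rule: the members, Kat2a, genes starting in the loci, fixed lists of TALE, Hox, Pbx-binding, downstream and marker genes, the gene nearest in pattern, and the strongest distal H3K9ac region of each locus. Other names, peak widths, gaps and steps along Meis1 were chosen after values were seen. Alternatives changed the q-value, promoter window, start sites, overlap, peak numbers, ranking, locus size and replicates. The interval code was tested on simulated data against bedtools 2.31.1. Python 3.11.15, numpy 2.4.6, scipy 1.17.1 and matplotlib 3.10.9 were used.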

Additional observations from a re-analysis of the deposited data

Results flagged for a closer look

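Replicate 1 of WT H3K27ac, which the comparisons did not use, listed a promoter peak at 2 members, Meis1 and Pknox1. The fold enrichments were 4.71 and 3.46, the widths 60 and 48 bp, and the −log10 q-value 0 for both. Of all protein-coding genes, 12.7% had a promoter peak in this list. The result drew attention as a signal in a library outside the comparisons, and its source was not tested.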

How the results depend on the processing

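With a peak in either replicate, the promoter count of H3K4me3 rose to 8 members in WT and 8 in KO, and that of H3K9ac to 8 and 7. Within 2 kb of a start, H3K4me3 was counted at 7 members in WT and 5 in KO, and H3K9ac at 6 and 5. The share of all genes was not counted for this wider window. With peaks in both replicates for every mark, H3K27ac was counted at 2 members in WT and 0 in KO, and H3K4me1 at 0 in each. The H3K4me1 count in WT was 0 at a q-value of at most 0.05 and also 0 at 0.01, 1 with the outermost start and 7 within 2 kb of a start. In KO it was 5 with the outermost start and 4 with equal peak numbers. Members with H3K4me3 higher in both KO libraries fell from 2 to 1 of 5 when ranked by −log10 p or with equal peak numbers and to 1 of 4 with the outermost start, and rose to 3 of 5, Pknox1 added, with percentiles among all peaks. Members with H3K9ac higher in both WT libraries fell to 0 with equal peak numbers, and those higher in both KO libraries to 0 with percentiles among all peaks or the outermost start. Of 69 member differences under an alternative, 62 kept their sign and 7 took the other. For H3K9ac (WT minus KO), Pbx2 changed from −1.76 to 0.481 by −log10 p and 0.770 among all peaks, Pbx3 from 0.103 to −24.7 with the outermost start and −0.328 with equal peak numbers, and Pknox1 from −7.53 to 23.9 with the outermost start. With a replicate left out, Pbx2 ranged from −17.7 to 14.1 and Pbx3 from −2.30 to 2.51.

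The covered ratio of H3K4me3 was 0.981 at a q-value of at most 0.05, 0.999 with equal peak numbers, 0.967 without promoter peaks, and 0.779 to 1.47 with a replicate left out. That of H3K9ac was 1.06 relative to the genome and lay between 0.819 (gene body) and 0.898 (equal peak numbers) under the other alternatives. For H3K27ac it was 1.57 with 20 kb flanks, 1.72 in the gene body, 1.73 at a q-value of at most 0.05, 0.935 relative to the genome, 1.52 with equal peak numbers, 1.84 without promoter peaks and 1.66 with both replicates. For H3K4me1 the same settings gave 5.07, 4.79, 10.7, 1.06, 2.58, 3.94 and 3.86. Under alternatives chosen after seeing the data, distal H3K9ac regions of WT alone numbered 5 with equal peak numbers, and those of KO alone 2 both there and at a q-value of at most 0.05. For these shifts the cause was not tested.

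With a replicate block, the smallest exact permutation p rose from 0.333 to 0.5, the least it allows. Deviations of libraries with the same number correlated at 0.00483 for H3K4me3 and 0.120 for H3K9ac across genes, which are not independent replicates, and the labels give the numbers no shared source. Unknown depth limits every absence of a peak, and 2 libraries of 1 pool per genotype limit every comparison to these libraries.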
